A study of Mus musculus with 3 samples.

Results

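The cell cycle and mitosis genes described here are 44 of the 2944 genes that the authors' 3 deposited comparison tables name. Members were selected by symbol from the union of those tables, and so by the authors' ratios between pairs of samples. The rule took cyclins A, B, D and E, the Cdca, Cdkn, Mcm, Kif, Aurk, Bub, Cenp and Plk families, symbols beginning Cdc or Cdk with a digit, and 10 further genes: Mki67, Top2a, Birc5, Rrm2, Nusap1, Prc1, Tpx2, Ube2c, Tk1 and Gadd45a. Because a gene is in those tables only where at least 1 pair of samples differed past 2-fold, the same contrasts chose the members, and every difference given for them is a description without a test. The label holds for 28 members with a role in the division cycle (division cycle members). The other 16, which the letters of their symbols brought in, are kinesins that carry cargo or have other roles, Cdc42 binding proteins, Cdk5r1, Plk3 and kinases of the Cdk family outside the core cycle.

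Each of the 3 groups was 1 Affymetrix array of lung RNA from 16 week old mice. The wild type lung was normal tissue. The tumour lung came from a KA/KA-Lori-Ikkα mouse and was a mixture of lung squamous cell carcinoma and the tissue beside it. The depleted lung came from a mouse of that same KA/KA-Lori-Ikkα genotype given a treatment that depletes macrophages, had some inflammation, and had no tumour that was observed. KA is a kinase-dead knock-in of IKKα, a kinase of the NF-κB pathway, and Lori-Ikkα is an IKKα transgene under the loricrin promoter, which is active in keratinising epithelium. Mutant genotype and tumour therefore differ together between the tumour and wild type lungs, the treatment and the absence of tumour differ together between both mutant lungs, and none of these can be told apart from the difference between individual mice. There is no replicate error with 1 array per group, and precision is limited by that number.

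A cell divides by passing through a phase of growth, a phase of DNA replication and mitosis, and cyclins, which rise and fall in turn, switch on the kinases that drive each step. D cyclins and cyclin E act before replication, cyclin A during it, and B cyclins with the kinase Cdk1 carry the cell into mitosis. In adult lung most cells rest outside the cycle, and transcripts of mitotic genes are used as a measure of dividing cells in tumours and in inflamed tissue.

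The deposited values are linear intensities, and the array medians over probe sets other than controls were 128, 124 and 127 in wild type, tumour and depleted lung. Hybridization control transcripts (18 probe sets), which are added to each sample in fixed amounts, had median intensities of 947, 2050 and 2290. Their median log2 difference was 1.00 for tumour over wild type lung, 1.18 for depleted over wild type lung and 0.15 for depleted over tumour lung, whereas the median of all probe sets stayed near 0, at -0.04, -0.02 and 0.03. The arrays also differed in Xist, a transcript of female cells, at 188, 15608 and 133. Xist was high in the tumour lung only, so a difference of sex cannot be told apart from tumour in comparisons with that lung. Among marker genes fixed for other cell types, the squamous keratin Krt5 stood at 106, 7347 and 66.4, the macrophage marker Cd68 at 1645, 14106 and 5553, and the endothelial marker Pecam1 at 5664, 1044 and 3754. The depleted lung thus had more macrophage marker signal than the wild type lung. All these are whole lung samples, in which fewer cells of a type and less RNA per cell cannot be told apart.

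The division cycle members were lowest in the wild type lung and in most cases highest in the tumour lung. Their median intensity was 114 in wild type lung (from 14.1 to 3887), 360 in tumour lung (from 112 to 2551) and 289 in depleted lung (from 69.7 to 1413). The wild type array was the lowest of the 3 for 26 of 28 members, the exceptions being Ccnd1 and Cdkn1c. By intensity the depleted array lay below the tumour array for 23 of 28, and above it for Ccnd3, Cdkn1c, Mcm6, Mki67 and Tk1. On the scale of percentiles within an array, which no factor common to an array can change, the median division cycle member stood at 47.9 in wild type lung, 68.7 in tumour lung and 64.6 in depleted lung. Below the array's median intensity lay 17 of the 28 in wild type lung, 2 in tumour lung and 3 in depleted lung.

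**Figure D1:**
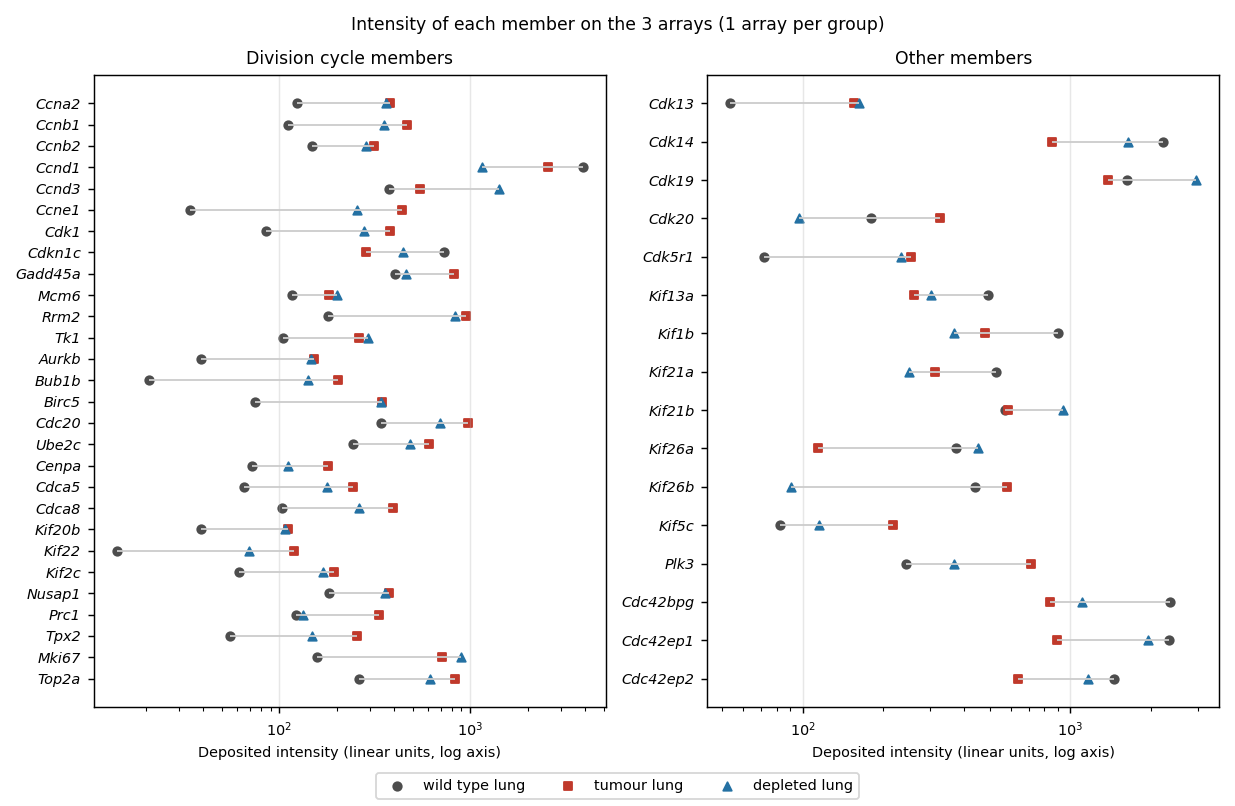
Deposited intensity (linear units on a log axis) of each of the 44 members on the wild type (circles), tumour (squares) and depleted (triangles) array, 1 array per group, with no error bars because there are no replicates. For most division cycle members, left, the circle is the leftmost point, with Ccnd1 and Cdkn1c as the exceptions, whereas the other members, right, show no common order.

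A member entered a comparison where its brighter array reached the 50th percentile of intensities there, and it was counted from a 2-fold difference on. In tumour over wild type lung 42 members entered, 26 of them (61.9%) higher by 2-fold or more and 6 (14.3%) lower, beside 37.6% and 38.2% of the 2813 named genes and 9.26% and 10.4% of all 24438 probe sets that entered. In depleted over wild type lung 40 members entered, 19 (47.5%) higher and 5 (12.5%) lower, beside 24.6% and 21.1% of named genes and 6.24% and 6.33% of all probe sets. In depleted over tumour lung 42 entered, 4 (9.52%) higher and 4 (9.52%) lower, beside 29.5% and 27.4% of named genes and 7.70% and 7.26% of all probe sets. The rule used these contrasts, so nothing is read from the members' shares.

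The members were then split by role, with earlier results of these data known, so nothing is read from the contrast between the sets. The shares of named genes and of all probe sets given above stand beside these counts too. Of the division cycle members 22 of 26 were at least 2-fold higher and 1 lower in tumour over wild type lung, with a median log2 difference of 1.64 (from -1.35 to 3.68). In depleted over wild type lung 17 of 25 were higher and 1 was lower, and the median was 1.44. In depleted over tumour lung 1 of 26 was higher and 2 were lower, and the median was -0.36. The median log2 difference of all named genes was -0.11, -0.07 and 0.26 in the same 3 comparisons. Of the 22 division cycle members at least 2-fold higher in tumour lung, 16 were also at least 2-fold higher in depleted lung, a pair of comparisons that share the wild type array. The other 16 members counted 4 higher and 5 lower in tumour over wild type lung (median -0.50), and 2 higher and 4 lower of 15 in depleted over wild type lung (median -0.32). All counts are of members that passed the level filter, and a member dim in wild type lung could pass only by being brighter elsewhere.

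The size of these differences, and for some members their direction, rests on the scale of the arrays. With the arrays set to equal medians of the hybridization controls, the median of all probe sets became -1.16 in tumour over wild type lung and -1.30 in depleted over wild type lung. Division cycle members then counted 7 higher and 2 lower of 25 in tumour over wild type lung (median 0.53), and 3 higher and 3 lower of 23 in depleted over wild type lung (median 0.18). All members counted 7 higher and 12 lower of 41 in the first of these comparisons, and 3 higher and 12 lower of 38 in the second. Shares of named genes and of all probe sets were not counted on this scale, so nothing is read from these counts. The 7 that stayed at least 2-fold higher in tumour lung were Ccne1, Bub1b, Rrm2, Tpx2, Birc5, Mki67 and Cdk1, and the 3 in depleted lung were Ccne1, Bub1b and Mki67. Ccne1 and Bub1b lay below the 25th percentile in wild type lung, and these counts did not raise their values to it. The place of Bub1b in depleted lung rests on that unraised value. For 15 members, 14 of them division cycle members, the value shown comes from a probe set whose name marks sequence shared between transcripts, and without such probe sets 16 of 31 members were higher in tumour over wild type lung. Shares of named genes and of all probe sets were not counted without such probe sets either. The directions given below are on the deposited scale.

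**Figure D2:**
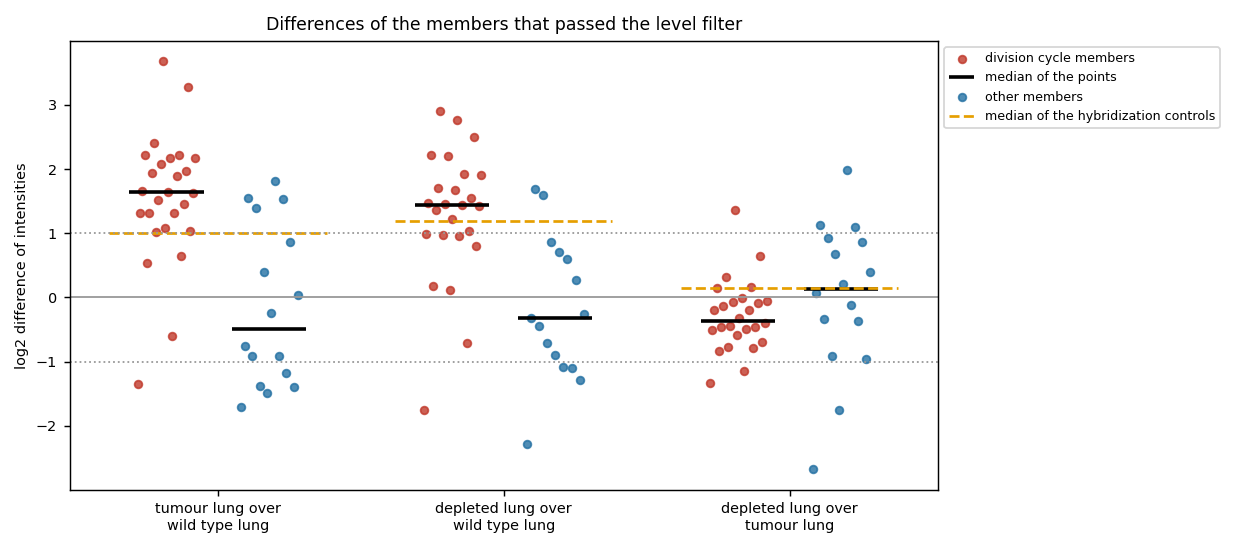
Log2 difference of deposited intensities for members that passed the level filter in each of the 3 comparisons, with division cycle members and other members side by side. Black bars mark the median of the points, the dashed orange line the median of the 18 hybridization controls (1.00, 1.18 and 0.15), and dotted lines 2-fold. The median of division cycle members lies above the controls' line in both comparisons with wild type lung (1.64 and 1.44) and below it in depleted over tumour lung (-0.36).

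**Figure D3:**
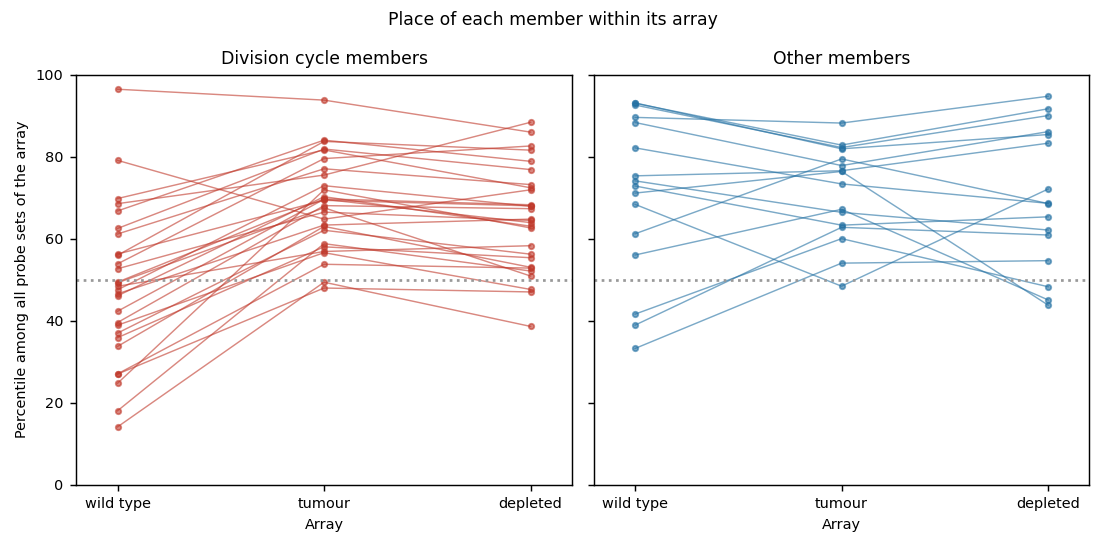
Percentile of each member among all probe sets of its own array, wild type, tumour and depleted lung from left to right, 1 line per member, with division cycle members left, other members right and a dotted line at the 50th percentile. The median division cycle member (not drawn) stood at 47.9 in wild type lung, 68.7 in tumour lung and 64.6 in depleted lung, and the lines of the other members run in different directions.

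Promoters of mitotic genes are known for a CCAAT box, bound by NF-Y, and for the cell cycle genes homology region (CHR), bound by the DREAM and MuvB complexes, while replication genes are known for E2F sites. The RefSeq promoter table for GRCm38.p6 held windows for 35 of the 44 members, 23 of them division cycle members, out of 27025 genes. In the 250 bases before the start, on both strands, the CHR letters TTTGAA stood in 10 of 23 division cycle members (43.5%), in 1 of 12 other members and in 18.3% of all genes with a window. The CCAAT letters stood in 16 of 23 (69.6%), 3 of 12 and 37.5%, and the E2F letters TTGGCGC or TTCCCGC in 4 of 23 (17.4%), 0 of 12 and 6.45%. Both CHR and CCAAT letters stood in 8 of 23 (34.8%), in 1 of 12 and in 6.45% of all genes. A match is a run of letters and not a measured site, and these shares had no test.

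The 120 bases before the start are printed for 12 members, 5′ to 3′ on the gene's strand, to show how these letters sit in genes whose intensities follow. Within these bases the first 6 hold both CHR and CCAAT letters, the next 5 show CCAAT, E2F or CHR letters alone or in other pairs (Ccnb2 and Mki67 hold the missing kind further upstream), and the last, Kif26b, is the 1 other member with both. Capitals mark the matched letters (on the reverse strand the CHR reads TTCAAA, the CCAAT box ATTGG and the first E2F run GCGCCAA), and in Ccnb1 the CCAAT letters overlap the E2F letters. The windows are Cdk1 at chr10:69352913-69353032 on the minus strand, Cdc20 at chr4:118437344-118437463 (minus), Ube2c at chr2:164769809-164769928 (plus), Prc1 at chr7:80294356-80294475 (plus, the window of its downstream start), Kif22 at chr7:127042421-127042540 (minus), Top2a at chr11:99024190-99024309 (minus), Ccnb1 at chr13:100786487-100786606 (minus), Ccnb2 at chr9:70421555-70421674 (minus), Mcm6 at chr1:128359706-128359825 (minus), Mki67 at chr7:135716380-135716499 (minus), Cdca5 at chr19:6084977-6085096 (plus) and Kif26b at chr1:178529005-178529124 (plus).
Cdk1: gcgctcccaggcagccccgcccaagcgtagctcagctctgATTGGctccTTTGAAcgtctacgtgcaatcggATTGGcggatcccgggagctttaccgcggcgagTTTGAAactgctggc
Cdc20: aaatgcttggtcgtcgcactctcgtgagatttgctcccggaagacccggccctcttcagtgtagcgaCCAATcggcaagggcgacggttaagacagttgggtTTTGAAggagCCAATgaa
Ube2c: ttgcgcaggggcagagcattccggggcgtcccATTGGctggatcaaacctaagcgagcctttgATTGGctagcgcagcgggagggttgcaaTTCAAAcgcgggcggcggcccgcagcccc
Prc1: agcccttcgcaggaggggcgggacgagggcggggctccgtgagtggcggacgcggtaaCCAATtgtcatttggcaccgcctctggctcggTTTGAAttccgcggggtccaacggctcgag
Kif22: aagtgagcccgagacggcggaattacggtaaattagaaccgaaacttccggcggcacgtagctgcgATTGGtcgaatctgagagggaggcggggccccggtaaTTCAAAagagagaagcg
Top2a: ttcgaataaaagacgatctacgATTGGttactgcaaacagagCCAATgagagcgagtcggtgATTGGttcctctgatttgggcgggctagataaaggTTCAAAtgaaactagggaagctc
Ccnb1: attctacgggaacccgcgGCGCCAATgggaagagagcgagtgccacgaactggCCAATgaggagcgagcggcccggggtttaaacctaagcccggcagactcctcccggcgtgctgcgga
Ccnb2: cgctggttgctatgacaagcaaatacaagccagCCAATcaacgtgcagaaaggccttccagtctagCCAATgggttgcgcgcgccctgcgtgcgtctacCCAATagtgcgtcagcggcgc
Mcm6: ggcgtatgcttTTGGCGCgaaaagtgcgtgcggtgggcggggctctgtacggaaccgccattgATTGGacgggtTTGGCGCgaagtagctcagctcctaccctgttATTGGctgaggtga
Mki67: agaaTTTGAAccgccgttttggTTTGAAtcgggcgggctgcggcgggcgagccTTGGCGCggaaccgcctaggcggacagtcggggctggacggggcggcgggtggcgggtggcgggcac
Cdca5: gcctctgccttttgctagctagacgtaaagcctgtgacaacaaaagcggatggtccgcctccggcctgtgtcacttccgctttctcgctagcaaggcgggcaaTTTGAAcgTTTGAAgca
Kif26b: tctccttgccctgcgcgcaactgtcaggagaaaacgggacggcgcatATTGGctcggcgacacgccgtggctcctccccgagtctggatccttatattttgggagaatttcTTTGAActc

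**Figure D4:**
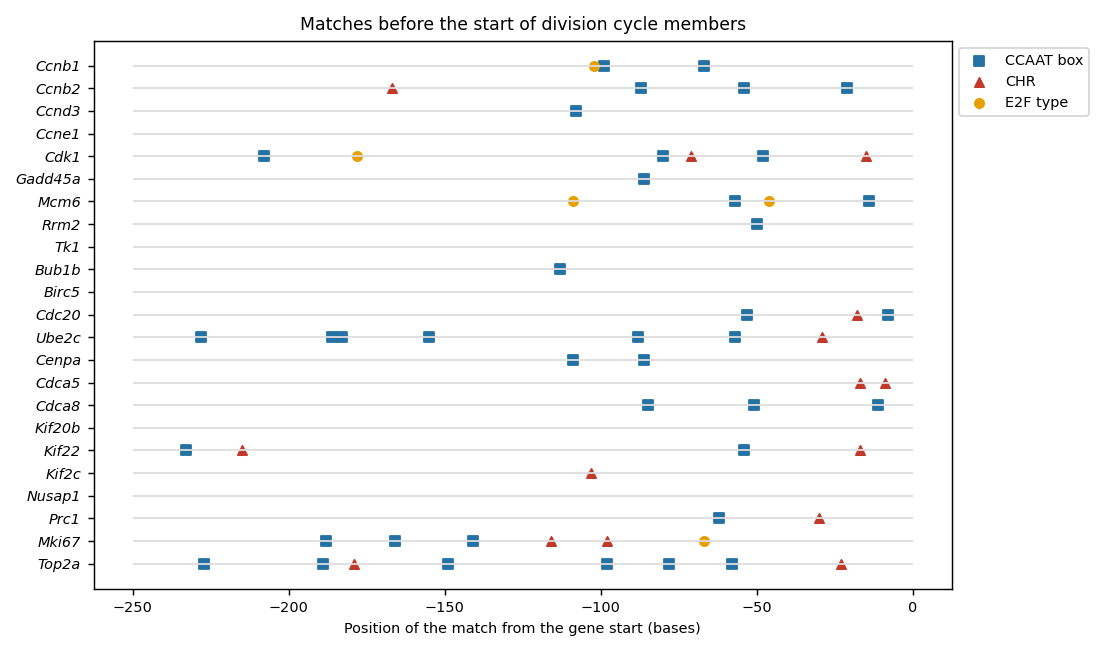
Position of CHR, CCAAT and E2F type letters in the 250 bases before the start (horizontal axis, bases from the start) for the 23 division cycle members with a window, 1 row per gene. For a gene with several windows, the row shows the one with the higher start coordinate among those that hold a match, and 8 of the 23 hold both CHR and CCAAT letters.

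Mitotic cyclins were higher in both mutant lungs than in wild type lung. Ccnb1, cyclin B1, which activates Cdk1 at the entry into mitosis, had an intensity of 111 in wild type lung, 467 in tumour lung and 355 in depleted lung, which is 4.22-fold and 3.20-fold above wild type. Ccna2, cyclin A2, which acts in replication and before mitosis, stood at 124, 382 and 362, or 3.09-fold and 2.92-fold above. Ccnb2, a further B cyclin, stood at 148, 314 and 286, or 2.13-fold and 1.94-fold above, and in the authors' deposited table its ratio of tumour to wild type lung was 2.00, just inside the threshold of listing. By intensity the tumour array was the highest for all 3 cyclins, whereas the authors' deposited table had Ccnb2 higher in depleted lung, at 2.38 times wild type. A second probe set of Ccnb1, below the 25th percentile in wild type lung, was at least 4.64-fold and at least 3.84-fold above it, and a second of Ccna2 gave log2 differences of 1.19 and 1.06.

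Cdk1, the kinase that the B cyclins activate, had the same order of arrays. Its intensity was 84.9 in wild type lung, 381 in tumour lung and 278 in depleted lung, so it was 4.49-fold and 3.27-fold above wild type. The 120 bases printed above hold 2 CHR and 2 CCAAT runs for Cdk1, and 3 CCAAT runs and no CHR letters for Ccnb2.

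The G1 cyclins did not move together. Ccnd1, cyclin D1, an early cyclin induced by growth signals, was brightest in wild type lung at 3887, lower in tumour lung at 2551 and lowest in depleted lung at 1153, so it was 1.52-fold lower in tumour and 3.37-fold lower in depleted lung. Its 3 listed probe sets had log2 differences of -1.0, -1.14 and -1.75 in depleted over wild type lung and of -0.15, -0.26 and -0.61 in tumour over wild type lung. Ccnd3, cyclin D3, which serves the same step and is prominent in lymphocytes, had the opposite order, with 376 in wild type lung, 549 in tumour lung and 1413 in depleted lung. Ccnd3 was therefore 3.75-fold above wild type and 2.57-fold above tumour lung in the depleted lung, the 1 division cycle member at least 2-fold higher in depleted than in tumour lung. Ccne1, cyclin E1, which acts with Cdk2 at the start of replication, stood at 34.2, 439 and 257.

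For Ccne1 the wild type value lay below the 25th percentile of its array, so the fold is a lower bound, at least 12.6-fold in tumour lung and at least 7.38-fold in depleted lung. The authors' deposited table gave Ccne1 ratios of only 2.59 and 1.88 for the same comparisons. The direction is shared by both sources and the size is not. The 9 named T cell markers had summed intensities of 2342, 5401 and 13098 in wild type, tumour and depleted lung, the same order as Ccnd3. The sums of the neutrophil markers had that order too (7951, 58660 and 90459), and those of the B and plasma cell markers did not (4656, 17195 and 14559). The part of these cell types in the Ccnd3 values was not tested.

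Among inhibitors of the cycle, Cdkn1c, the CDK inhibitor p57, was lower in both mutant lungs, and Gadd45a, a stress gene induced by DNA damage, was highest in tumour lung. Cdkn1c stood at 728 in wild type lung, 285 in tumour lung and 447 in depleted lung, or 2.56-fold and 1.63-fold below wild type. Gadd45a stood at 406, 822 and 460, or 2.02-fold above wild type in tumour lung and 1.13-fold above it in depleted lung. Cdkn1c was the 1 division cycle member at least 2-fold lower in tumour than in wild type lung, and Ccnd1 the 1 that was so in depleted lung.

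Genes of replication and nucleotide supply were higher in both mutant lungs, with Rrm2 the furthest apart. Rrm2, a subunit of ribonucleotide reductase, which makes deoxynucleotides, stood at 179 in wild type lung, 952 in tumour lung and 834 in depleted lung, or 5.31-fold and 4.65-fold above wild type. Its other probe sets gave log2 differences of 1.53 and 1.37 in tumour over wild type lung, and of 0.92 and 1.33 in depleted over wild type lung. Tk1, thymidine kinase of the salvage pathway, stood at 105, 262 and 293, or 2.49-fold and 2.78-fold above. Mcm6, a subunit of the replicative helicase, stood at 116, 182 and 202, or 1.57-fold and 1.74-fold above, and so did not reach 2-fold by its intensities. The authors' deposited table had Mcm6 at a ratio of 2.01, just inside listing, and its printed promoter bases hold 2 E2F runs. By intensity Tk1 and Mcm6 were slightly brighter in depleted than in tumour lung, but the authors' deposited ratio of depleted to tumour lung was 0.875 for Mcm6, the opposite direction.

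Kinases and checkpoint proteins of mitosis were all at least 2-fold higher in tumour lung and, apart from Ube2c, in depleted lung. Birc5, survivin, a subunit of the chromosomal passenger complex, had 74.5 in wild type lung, 345 in tumour lung and 342 in depleted lung, 4.63-fold and 4.59-fold above wild type. Aurkb, the kinase of that complex, had 38.9, 153 and 147, 3.93-fold and 3.79-fold above. Each of these subunits differed by at most 1.04-fold between both mutant lungs. The authors' deposited table gave smaller ratios for Aurkb, 2.02 and 1.74.

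Bub1b, BubR1 of the spindle checkpoint, stood at 20.9 in wild type lung, 202 in tumour lung and 142 in depleted lung. Its wild type value lay below the 25th percentile, so the bound was at least 5.82-fold for tumour and at least 4.08-fold for depleted lung, against ratios of 3.06 and 2.62 in the authors' deposited table. Cdc20, an activator of the anaphase promoting complex, stood at 340, 975 and 695, or 2.86-fold and 2.04-fold above wild type. The second probe set of Cdc20 did not show this, with log2 differences of 0.47 and 0.0031. Ube2c, the ubiquitin conjugating enzyme of the same complex, stood at 243, 606 and 484, or 2.49-fold and 1.99-fold above.

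The centromere and Cdca members were higher in tumour lung and, by the probe set shown, in between in depleted lung. Cenpa, the histone variant of centromeres, stood at 72.0 in wild type lung, 179 in tumour lung (2.49-fold above) and 111 in depleted lung, which was too dim there to enter the comparison with wild type. Cdca8, borealin of the chromosomal passenger complex, stood at 103, 396 and 263, or 3.85-fold and 2.56-fold above wild type. Cdca5, sororin, which holds sister chromatids together, stood at 65.4, 243 and 177, or 3.72-fold and 2.71-fold above. A second probe set of Cdca8 stood at 12.0, 246 and 251, with the wild type value below the 25th percentile of its array and the depleted array slightly above the tumour array, so it gives bounds of at least 7.07-fold and at least 7.21-fold.

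Motors and other proteins of the mitotic spindle were higher in tumour lung, and they differed from one another in the depleted lung. Prc1, which bundles the central spindle, had 123 in wild type lung, 335 in tumour lung and 133 in depleted lung. In tumour lung Prc1 was 2.73-fold above wild type, and in depleted lung it was back within 1.08-fold of it, 2.52-fold below tumour lung. Tpx2, the activator of Aurora A at the spindle, had 55.2, 257 and 149, or 4.65-fold and 2.70-fold above wild type. The authors' deposited table gave Prc1 ratios of 2.02 and 1.37 against wild type, and Tpx2 ratios of 2.38 and 1.52. These were smaller than the folds by intensity, except for Prc1 in depleted lung, where the authors' ratio was larger. In that table Prc1 was only 1.47-fold lower in depleted than in tumour lung.

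Kif2c, the kinesin MCAK, which depolymerises microtubules at kinetochores, stood at 61.8, 194 and 170, or 3.14-fold and 2.74-fold above wild type. Nusap1, a microtubule binding protein of the spindle, stood at 183, 376 and 356, or 2.06-fold and 1.95-fold above. Its ratio of tumour to wild type in the authors' deposited table was 1.78, outside the threshold, and it was listed through the other comparison. Kif22, the chromokinesin Kid, at 14.1, 120 and 69.7, and Kif20b, a kinesin of cytokinesis, at 38.7, 112 and 107, were too dim on every array to enter a comparison. These 2 members account for all that entered none.

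Mki67, the proliferation antigen Ki-67, was higher in both mutant lungs. It stood at 159 in wild type lung, 715 in tumour lung and 895 in depleted lung, which is 4.51-fold and 5.64-fold above wild type and percentiles of 53.8, 79.5 and 82.6 within the arrays. Top2a, the topoisomerase that untangles chromosomes, stood at 263, 834 and 613, or 3.17-fold and 2.33-fold above wild type. By intensity Mki67 was 1.25-fold above tumour lung in depleted lung and Top2a below it, but the authors' deposited ratios of depleted to tumour lung were 0.983 for Mki67 and 0.745 for Top2a, so the order of the mutant lungs for Mki67 was not settled. Their printed bases hold 2 CHR runs and 1 E2F run in Mki67, and 1 CHR and 3 CCAAT runs in Top2a.

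Kinases of the Cdk family outside the core cycle had no common direction. Cdk14, a kinase of Wnt signalling, stood at 2221 in wild type lung, 856 in tumour lung and 1635 in depleted lung, or 2.59-fold lower in tumour lung. Cdk20, also called CCRK, stood at 180, 327 and 97.1, 3.37-fold lower in depleted than in tumour lung. Cdk5r1, the p35 activator of the neuronal kinase Cdk5, stood at 72.0, 254 and 233, or 3.52-fold and 3.23-fold above wild type. Cdk19, a kinase of the Mediator complex, stood at 1626, 1379 and 2948, 2.14-fold higher in depleted than in tumour lung. Cdk13, a kinase of RNA polymerase II, stood at 53.8, 155 and 162.

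The kinesins with roles outside mitosis included the member furthest apart between both mutant lungs. Kif26b, a kinesin without motor activity that acts in cell adhesion and kidney development, stood at 440 in wild type lung, 581 in tumour lung and 90.8 in depleted lung. It was 4.85-fold lower in depleted than in wild type lung and 6.40-fold lower than in tumour lung, against folds of 4.84 and 7.27 in the authors' deposited table. Its promoter holds CHR and CCAAT letters as those of Cdk1 and Cdc20 do. Its order across the arrays was another, and a link of the letters to that order was not tested. Kif26a, its closest relative, had a different order, with 373, 114 and 451, so it was 3.26-fold lower in tumour than in wild type lung and 3.94-fold higher in depleted than in tumour lung. Kif5c, a neuronal kinesin-1 motor, stood at 82.2, 217 and 115.

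Kif1b, a motor of mitochondria and synaptic vesicles, and Kif21a, a motor that regulates microtubule growth, were lower in both mutant lungs. Kif1b stood at 900 in wild type lung, 478 in tumour lung and 369 in depleted lung, and Kif21a at 529, 313 and 249, or 2.44-fold and 2.13-fold below wild type in depleted lung. By intensity Kif13a and Kif21b stayed within 2-fold in every comparison. They were listed through the authors' deposited ratios of depleted to wild type lung, 0.489 and 2.11.

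Plk3 and the Cdc42 related members went opposite ways in tumour lung. Plk3, a polo-like kinase of the stress response, stood at 244, 711 and 368, 2.92-fold above wild type in tumour lung. Cdc42bpg, a kinase that binds Cdc42, stood at 2363, 838 and 1102, or 2.82-fold and 2.15-fold below wild type. Cdc42ep1 and Cdc42ep2, effectors of Cdc42 that act on the actin cytoskeleton and septins, were lowest in tumour lung as well, Cdc42ep1 at 2338, 892 and 1949 and Cdc42ep2 at 1452, 640 and 1163. Cdc42ep1 was 2.62-fold lower in tumour than in wild type lung and 2.19-fold higher in depleted than in tumour lung.

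In all, 8 members were lowest in the tumour lung: Cdkn1c, Cdc42bpg, Cdc42ep1, Cdc42ep2, Cdk14, Cdk19, Kif13a and Kif26a. The summed intensities of the 8 named endothelial markers, 49242, 8233 and 40721, had the same lowest array. So did those of the 6 named ciliated cell markers, 9171, 1608 and 4917, and of the 7 named heart and skeletal muscle markers, 43983, 569 and 8263. Among these markers only the endothelial Kdr was lowest in depleted lung, at 4770, 999 and 840. The part of these cell types in the members' values was not tested.

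The threshold of listing left members close to both sides of it. Just inside stood Ccnb2 at 2.00 and Mcm6 at 2.01 in the authors' deposited table. Just outside stood the brightest probe set of Ccnd1 at 1.92 in tumour against depleted lung, while another Ccnd1 probe set was listed there at 2.04. Nusap1 stood outside at 1.78 in tumour over wild type lung and was listed through another comparison. The intensities and the authors' deposited ratios had the same sign for all 42 members that entered in tumour over wild type lung, all 40 in depleted over wild type lung and 36 of 42 in depleted over tumour lung, the exceptions being Ccnb2, Kif13a, Kif21a, Mcm6, Mki67 and Nusap1. Of the 32, 24 and 8 members at least 2-fold apart by intensity in these comparisons, 30, 17 and 5 were also 2-fold apart in the authors' deposited table.

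Genes of the cycle outside the members, taken from fixed lists, could be named only where the tables list them. Of 30 further genes of DNA replication and licensing 4 were named, and all 4 were at least 2-fold higher in tumour over wild type lung, as were 3 of the 3 that entered in depleted over wild type lung. They were Cdt1, a licensing factor, at 401, 1117 and 1115, Hells, a chromatin remodeller, at 97.9, 285 and 294, Uhrf1, which keeps DNA methylation through replication, at 81.2, 319 and 219, and Gins2, a helicase subunit. Dck, the 1 of 7 genes of nucleotide supply that was named, was also higher in both, at 386, 787 and 862. Genes of these lists were named through the same tables as the members, so their counts share the tables' selection.

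Of 23 kinetochore and checkpoint genes 4 were named, 3 of 3 that entered being higher in tumour lung and 2 of 3 in depleted lung. Incenp, the scaffold of the passenger complex that holds Aurkb and Birc5, stood at 285, 1233 and 932. Of 22 genes of chromosome structure 7 were named, with 4 higher and 1 lower of 5 in tumour lung and 3 higher of 5 in depleted lung. Cks2, which binds Cdk1, stood at 253, 1307 and 1190, while Stmn1, which destabilises microtubules, was the lower one, at 6041, 2257 and 6212. Of 10 genes of cytokinesis 3 were named, and both that entered were higher in both mutant lungs, among them Cep55, an abscission factor, at 102, 325 and 328.

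Of 19 transcriptional regulators of the cycle only Myc, a growth regulator, was named, at 197, 667 and 511, higher in both mutant lungs. Of 19 targets of p53 outside the members 4 were named, with 2 higher in tumour over wild type lung and none in depleted over wild type lung. The 2 higher were Perp, a p53 target that is also a desmosome protein of stratified epithelium, at 1161, 6210 and 826, and Gadd45g, a relative of Gadd45a, at 562, 1902 and 1103. The other 2, Fas and Gadd45b, went the other way, 1.91-fold and 1.51-fold lower in tumour than in wild type lung.

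Markers of other cell types that can divide or enter inflamed lung also differed between the arrays, in orders that varied with the cell type. All 11 named squamous markers were at least 2-fold higher in tumour over wild type lung, with sums of 474, 72882 and 617 in wild type, tumour and depleted lung. All 11 named macrophage markers were higher in tumour lung and 9 of 10 in depleted lung, with sums of 8678, 88220 and 32910. T cell markers were higher for 7 of 9 in tumour lung and 9 of 9 in depleted lung. B and plasma cell markers were higher for 4 of 9 and 7 of 9, with sums of 4656, 17195 and 14559, and 3 of 9 were lower in tumour lung.

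Neutrophil markers were higher for 5 of 7 and 7 of 9, with sums of 7951, 58660 and 90459, and 1, Ltf, was lower in depleted lung. In tumour lung S100a8, S100a9 and Lcn2 stood at 16086, 14352 and 25803, and no other named neutrophil marker exceeded Ltf at 1201. Erythroid markers were higher for 0 of 2 and 1 of 2, with sums of 3471, 1945 and 1880, and 1, Alas2, was lower in depleted lung. The 7 named markers of heart and skeletal muscle were lower in both mutant lungs, with sums of 43983, 569 and 8263. No named marker had an intensity of 0 on any array. The squamous sum in depleted lung lay near that of wild type lung while 17 of 25 division cycle members were at least 2-fold above it, and the part of each of these cell types in the members' values was not tested.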

How the data were processed

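RNA from lung homogenates of 3 mice was labelled with biotin and hybridised to 1 Affymetrix array each, per the labels' protocols. The values deposited by the authors are linear intensities for each of 45101 probe sets, 64 of them controls. The submitters' processing notes name Partek with no version, and the summarisation and scaling are not stated in what was used here. Per the file headers, 3 further tables deposited by the authors hold the ratio of sample pairs, a linear fold, for probe sets past 2-fold only. These tables list 4310 probe sets (9.56%), of which 3858 carry 1 symbol, 180 several and 238 none, and 34 are controls. Symbols were updated with RefSeq for GRCm38.p6 through accession (3661), symbol (66) or older symbol (42), and 89 kept the file's name. The log2 of the authors' ratios correlated with that of the intensities at 0.94, 0.90 and 0.93 across listed probe sets in tumour over wild type, depleted over wild type and depleted over tumour lung, and probe sets are not independent replicates. Array coordinates are not printed, since no genome build is stated for the probe sets.

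Values were computed with Python 3.11.15, numpy 2.4.6 and pandas 2.3.3 from log2 of the intensities as deposited. Of several listed probe sets a gene took the one brightest on average. A comparison used genes whose brighter array reached its 50th percentile. For folds given as lower bounds, a dimmer side below the 25th percentile of its array was replaced by that percentile. The main counts, medians and ranges used the values without this replacement. The count script was tested on simulated data. With 1 array per group, p-values were not computed. Members, role groups and lists were chosen with earlier results of these data known. Intensities are given for up to 6 members per role group with the largest differences, for a fixed set of cycle genes and, to account for every member, for those too dim to enter. Of the fixed lists outside the members, intensities are given for up to 3 genes each, and p53 targets, cell type markers and promoter letters were counted likewise. Alternatives were other scalings of the arrays, other probe set choices, other filters and thresholds, the authors' ratios and the division cycle members alone. Promoter windows were matched by symbol.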

Additional observations from a re-analysis of the deposited data

Results flagged for a closer look

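A probe set that the deposited tables give to several genes, Ccnb1, Gm5593 and Gm8416, was not used for any member because it has more than 1 symbol. Its intensity, from the same arrays as the members, was 127 in tumour lung and 106 in depleted lung against 21.8 in wild type lung. The wild type value lay below the 25th percentile of its array, so the tumour value was at least 3.67-fold higher. The order of the arrays is that of the single-symbol Ccnb1 probe set (111, 467 and 355 in wild type, tumour and depleted lung). Gm5593 and Gm8416 share its sequence, so the signal cannot be divided among the 3 genes.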

How the results depend on the processing

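The 9 counts and medians over the members were recomputed under 120 alternatives. Of these, 81 moved a count or a median by less than 1.5-fold and 39 moved one further. The median over the members changed sign in 3 of them: under both control scalings in depleted over wild type lung, as given below, and under the 75th percentile filter in depleted over tumour lung, to 0.066. For tumour over wild type lung the main counts were 26 higher and 6 lower and the median log2 difference 1.32. Equal medians of the hybridization controls gave 7 higher, 12 lower and a median of 0.20, and removing the median control difference gave 8, 11 and 0.32. Leaving out probe sets of shared sequence gave 16 higher of 31, a 75th percentile filter 7 higher and a median of 0.22 among 18, a 1.5-fold threshold 10 lower, a 3-fold threshold 15 higher and 1 lower, and the division cycle members alone 1 lower. For depleted over wild type lung (19 higher, 5 lower, median 0.98) the same control scalings gave 3 higher, 12 lower and -0.26, and 5, 12 and -0.17. Leaving out shared sequence gave 10 higher of 29, the 75th percentile filter 5 higher, 3 lower and 0.23 among 14, a 1.5-fold threshold 8 lower, a 3-fold threshold 11 higher and 2 lower, and the division cycle members alone 1 lower. For depleted over tumour lung (4 higher, 4 lower, median -0.19) equal control medians gave 2 higher, the median control difference 2 higher and 7 lower, shared sequence left out 2 lower, the 75th percentile filter 2 lower, a 1.5-fold threshold 8 higher and 11 lower, a 3-fold threshold 1 higher and 2 lower, the authors' deposited ratios 2 lower, and the division cycle members alone 1 higher and 2 lower. Fewer genes tested lowers the counts under the shared sequence and 75th percentile settings by construction. No shares of named genes or of all probe sets were counted under the alternatives. The cause of the control difference was not tested.

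Of 64 member differences of at least 2-fold, 64 stayed 2-fold in the same direction after quantile normalization and after division by array medians, 61 with the median over probe sets, 52 by the authors' ratios, 43 of 45 without shared sequence, 30 with the median control difference removed and 27 at equal control medians. Under equal control medians the sign turned for Ccnb2 (-0.025), Gadd45a (-0.099) and Nusap1 (-0.073) in tumour over wild type lung, and for Cdc20 (-0.24) and Top2a (-0.053) in depleted over wild type lung. With the median control difference removed it turned for Cdc20 (-0.15). No paired analysis was possible because each group had 1 array, and for the same reason no replicate could be left out. The signal over background limits dim genes such as Kif22 and Bub1b, whose wild type values lay below the 25th percentile.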

Other observations

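A probe set that the tables give to Kif9 and LOC100047193 together had intensities of 262 in wild type lung, 77.7 in tumour lung and 132 in depleted lung. Kif9 is a kinesin of motile cilia and sperm flagella, and the 6 named ciliated cell markers had the same order, with sums of 9171, 1608 and 4917. The sums of the endothelial markers (49242, 8233 and 40721) and of the heart and skeletal muscle markers (43983, 569 and 8263) had that order too. The part of these cell types in the signal of this probe set was not tested.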
